A study of Mus musculus with 133 samples.

Results

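The genes described here encode the caseins and other proteins of mouse milk. Of 10 genes listed by name, 9 had a probeset annotated to that gene alone (Csn1s1, Csn1s2a, Csn1s2b, Csn2, Csn3, Wap, Glycam1, Lao1 and Btn1a1), out of 19938 genes with such a probeset on the arrays. Each of the 9 had 1 such probeset. Lalba, which encodes alpha-lactalbumin, was represented by a probeset that also carries the name Trip12 and was given no value. RNA of mammary tumours was hybridised to 133 Affymetrix mouse gene arrays. The tumours came from untreated female F1 mice, offspring of Diversity Outbred dams and sires carrying MMTV-PyMT, so that every animal carried the transgene and its own mixture of founder alleles. In this model the polyoma middle T antigen is expressed in mammary epithelium from the long terminal repeat of the mouse mammary tumour virus, and an animal usually develops tumours in several glands. Whole tumours were used, so that fewer cells of a type and less RNA per cell cannot be told apart in any value below. There was no treatment group and no normal gland, so the comparisons are between tumours. The main set held 1 array per animal, of which 48 carry titles with a running number and 79 carry titles of a second form, called named titles here. The other 6 arrays have a suffix r in the title and were set apart.

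Milk proteins are made by the luminal alveolar cells of the mammary gland late in pregnancy and during lactation. Prolactin acts through its receptor, the kinase Jak2 and the transcription factors Stat5a and Stat5b, together with glucocorticoid receptor and Elf5, to switch on their genes. Csn1s1, Csn2, Csn1s2a and Csn1s2b encode the calcium-sensitive caseins and lie in 1 cluster on chromosome 5 with Csn3. The product of Csn3, kappa-casein, coats the casein micelle. Wap encodes whey acidic protein, Lao1 an L-amino acid oxidase secreted into milk, Btn1a1 the butyrophilin of the milk fat globule membrane, and Glycam1 a mucin-type glycoprotein that is secreted into milk and is also made by the high endothelial venules of lymph nodes.

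Stat5 proteins bind the palindrome TTCNNNGAA, so the bases before the start of each gene were searched for it. RefSeq promoters (build GRCm38.p6) were at hand for 7 of the 10 genes. Within the 250 bases before the start, 3 of the 7 held the motif (Csn2, Csn1s1 and Glycam1), against 7.02% of 32851 promoters of the same length. The palindrome reads the same on both strands, so both were covered. In the sequences, written 5′ to 3′ along the strand of the gene, capitals mark the motif. The sequences of Csn2 and Csn1s1 are shown because these genes varied together most closely among the genes with the motif. That of Glycam1 is shown because it holds the motif and was high in some tumours with little Csn2. That of Csn1s2a is shown because it followed Csn2 most closely of all genes and holds no match before the start. The search covers letters only and shows no binding.
Csn2 (chr5:87699426-87699675, minus strand): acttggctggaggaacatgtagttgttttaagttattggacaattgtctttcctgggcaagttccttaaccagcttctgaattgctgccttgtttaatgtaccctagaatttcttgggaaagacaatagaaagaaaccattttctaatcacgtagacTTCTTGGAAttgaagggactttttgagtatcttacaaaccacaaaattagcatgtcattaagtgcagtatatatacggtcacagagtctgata
Csn1s1 (chr5:87665958-87666207, plus strand): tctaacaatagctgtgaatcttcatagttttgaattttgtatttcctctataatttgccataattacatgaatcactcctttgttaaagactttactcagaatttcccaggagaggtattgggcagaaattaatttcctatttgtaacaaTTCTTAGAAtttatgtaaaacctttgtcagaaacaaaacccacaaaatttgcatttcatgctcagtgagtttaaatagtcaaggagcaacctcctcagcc
Glycam1 (chr15:103565082-103565331, minus strand): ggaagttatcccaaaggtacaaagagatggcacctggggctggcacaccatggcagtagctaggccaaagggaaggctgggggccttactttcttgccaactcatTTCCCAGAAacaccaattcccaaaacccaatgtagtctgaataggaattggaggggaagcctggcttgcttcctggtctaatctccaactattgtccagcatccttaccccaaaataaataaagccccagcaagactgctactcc
Csn1s2a (chr5:87774200-87774449, plus strand): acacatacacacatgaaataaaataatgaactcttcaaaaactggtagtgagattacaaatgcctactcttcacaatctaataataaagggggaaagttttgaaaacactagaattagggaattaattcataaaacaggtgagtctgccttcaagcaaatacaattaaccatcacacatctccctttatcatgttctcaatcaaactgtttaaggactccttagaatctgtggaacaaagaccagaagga
The first base of the motif stood 93 bases before the start in Csn2, 100 before it in Csn1s1 and 145 before it in Glycam1. In Csn1s2a a match began 21 bases after the start, and 8.30% of promoters held a match when 50 bases after the start were included. Wap, Lao1 and Lalba had no match in either window.

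Some arrays stood apart from the rest. The 4 arrays with the lowest mean correlation with all others were those of animals 14095 (0.921), 14094 (0.923), 14312 (0.927) and 14320 (0.933). Of these, 14094 and 14095 carried high levels of salivary gland genes. Their mean log2 level over 12 genes of salivary secretion was 11.89 and 12.46, while the other tumours ranged from 4.77 to 8.95 with a median of 5.4. Smgc, which encodes a submandibular gland protein, was at 10.95 and 12.71 on these arrays and between 3.58 and 5.52 elsewhere. Animals 14051 and 14033 had high Amy1 (12.66 and 12.38), which encodes salivary amylase, with Smgc at 4.14 and 3.81. Bpifa2, also among the 12 genes, was at 13.62 in 14051 and 13.01 in 14033. It was at 12.28 in 14094 and 13.48 in 14095, and its median over the other tumours was 5.58. Animals 14051 and 14033 stayed in the set without the 4 arrays. The luminal keratin Krt8 was at 10.68 and 10.98 in 14094 and 14095 and between 11.25 and 12.65 in the other tumours. The mean level of 9 luminal genes was 9.56 in 14094 and 9.96 in 14095, against 9.78 to 10.90 in the others. For these 2 arrays the salivary genes went against the label of mammary tumour, and how much of each sample was mammary tissue was not tested. Results that rest on these arrays are given for all tumours of the main set and again without the 4 arrays. The array medians lay between 6.12 and 6.29 for numbered titles, 5.87 and 6.36 for named titles and 5.36 and 5.58 for the suffix r.

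Among the calcium-sensitive caseins, Csn2, Csn1s2a and Csn1s1 spanned more than 7 log2 units between tumours, whereas Csn1s2b stayed near the lower end of the scale in nearly all of them. Csn2, which encodes beta-casein, ranged from 5.31 through a median of 10.12 to 12.80, with an SD of 2.23 after centring within title series (48 numbered and 79 named titles). Counted from the median of its own title series, as in all counts of this kind here, it was more than 2 units below in 40 tumours and within 0.5 units of that median in 15, so the tumours were spread over the whole range. Csn1s2a, the gene of an alpha-S2-casein, ranged from 4.69 through 8.23 to 12.73 (SD 2.16), with 27 tumours more than 2 units above the median and 34 as far below. Csn1s1, which encodes alpha-S1-casein, ranged from 5.12 through 10.13 to 12.74 (SD 1.70). Here the low side was longer, with 18 tumours more than 2 units below the median and 3 as far above. Csn1s2b, the second alpha-S2-casein gene, ranged from 3.71 through 4.09 to 6.71 (SD 0.44), and all but 9 tumours lay within 0.5 units of the median. Of these, 6 exceeded the median by more than 1 unit, among them 14141 at 6.71, 14044 at 6.50 and 14262 at 6.02.

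Csn3 was high in almost every tumour. It ranged from 7.47 through 11.68 to 12.35 (SD 0.58), on arrays whose highest value was 14.00, and all but 13 tumours lay within 0.5 units of the median. No tumour was more than 1 unit above it. The lowest 4 values, 7.47, 9.14, 9.62 and 10.09, belonged to the 4 arrays that stood apart, and without them the SD was 0.31. The place of Csn3 near the upper end of the scale was not tested as a limit on its spread.

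The whey protein and the other secreted proteins lay between these extremes. Wap ranged from 6.10 through 9.88 to 12.21 (SD 1.09), with 22 tumours more than 1 unit above the median and 22 as far below. Lao1 ranged from 5.64 through 10.05 to 11.84 (SD 1.40), with 18 tumours more than 2 units below the median and 1 as far above. Btn1a1 ranged from 5.31 through 8.45 to 10.48 (SD 1.00). Glycam1 had the opposite shape to Lao1: it ranged from 4.28 through 5.44 to 12.15 (SD 1.99), with 28 tumours more than 2 units above the median and none as far below. The median of Glycam1 lay near its lowest value, and a floor of its probeset was not tested as a limit on the low side. Set against all 19938 genes, the SD of Csn2 was at or above that of 99.98% of genes, that of Csn1s2a 99.97%, Glycam1 99.96%, Csn1s1 99.9%, Lao1 99.8%, Wap 99.5%, Btn1a1 99.2%, Csn3 95.4% and Csn1s2b 90.2%. Without the 4 arrays the share for Csn3 was 82.6%, and that for the other 8 genes moved by less than 1 percentage point.

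**Figure D1:**
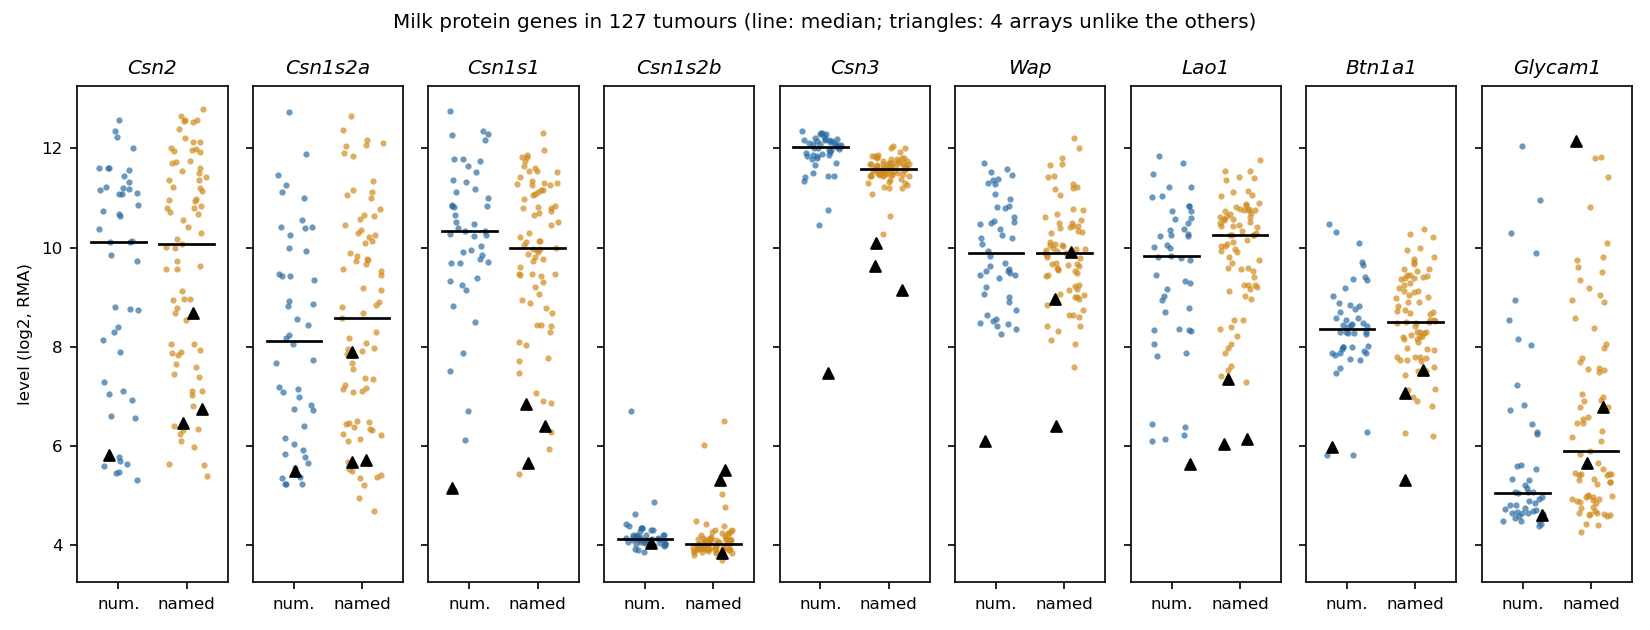
Level of each milk protein gene (log2 after RMA, vertical axis), split into 48 numbered and 79 named titles (horizontal axis), with a line at the median and triangles for the 4 arrays that stood apart. Csn2, Csn1s2a and Csn1s1 fill the range from about their lowest to their highest value, Csn1s2b and Csn3 cluster near their medians of 4.09 and 11.68, and Glycam1 has a long upper tail; levels are not compared between genes, whose probes differ.

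The titles form 2 series of arrays, and the milk genes were compared between them as a check on batch. Over all genes, 69.6% were higher in numbered titles and 5.72% higher in named titles in limma at an adjusted p of 0.05, with a median difference of 0.18 log2 units. Of the 9 milk genes, Csn3 was higher in numbered titles by 0.34 (SE 0.11, adjusted p = 0.00238 in limma) and Glycam1 was lower by 0.77 (difference -0.77, SE 0.36, adjusted p = 0.0445 in limma). Without the 4 arrays Glycam1 no longer passed (-0.69, adjusted p = 0.0719 in limma), and after quantile normalization across arrays Csn3 did not (0.15, adjusted p = 0.202 in limma). The other 7 genes differed by between -0.41 (Csn1s2a and Lao1) and 0.33 (Csn1s1), with adjusted p from 0.128 to 0.891 in limma. All values used in the relations below were centred within title series.

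The milk genes varied together, with Csn2 and Csn1s2a as the tightest pair. Across all tumours the 36 pairs had a median Pearson r of 0.50, and all 36 were above 0, from 0.02 to 0.93. The first principal component of the 9 genes held 54.8% of their variance, and 55% without the 4 arrays. Csn2 and Csn1s2a had r = 0.93 (95% interval 0.90 to 0.95) and Spearman rho = 0.95, each with a permutation p of 1e-05, the smallest that 100000 permutations can give. The value was 0.93 without the 2 tumours of most extreme Csn1s2a, 0.92 within numbered titles and 0.94 within named titles. Csn1s1 followed both more loosely. With Csn2 it had r = 0.77 (95% interval 0.69 to 0.83) and rho = 0.81 (permutation p = 1e-05 for both), 0.77 without the 2 extreme tumours, 0.79 within numbered and 0.76 within named titles. Its r with Csn1s2a was 0.76.

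Among Wap, Lao1 and Btn1a1, the closest pair was Wap and Lao1. They had r = 0.72 (95% interval 0.62 to 0.79) and rho = 0.72 (permutation p = 1e-05 for both), 0.67 without the 2 extreme tumours, 0.82 within numbered and 0.63 within named titles. Lao1 and Btn1a1 had r = 0.62 and rho = 0.53 (permutation p = 1e-05 for both), 0.56 without the 2 extreme tumours, 0.65 within numbered and 0.59 within named titles. Wap and Btn1a1 had r = 0.55, below the r of Wap with Csn1s1 (0.63), Csn1s2a (0.61) and Csn2 (0.60). Csn2 had r = 0.63 with Lao1 and 0.46 with Btn1a1. Each of the 3 genes had its highest r among the milk genes with another of the 3. For Btn1a1, the r with Lao1 (0.62) and Wap (0.55) exceeded that with any casein, the highest being Csn1s2a (0.50). Without the arrays that stood apart, Btn1a1 had r = 0.55 with Lao1, 0.48 with Csn1s2a and 0.47 with Wap. Lao1 had a slightly higher r with Csn2 (0.63) than with Btn1a1 (0.62). The 3 genes were thus only partly set off from the caseins by their r.

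**Figure D2:**
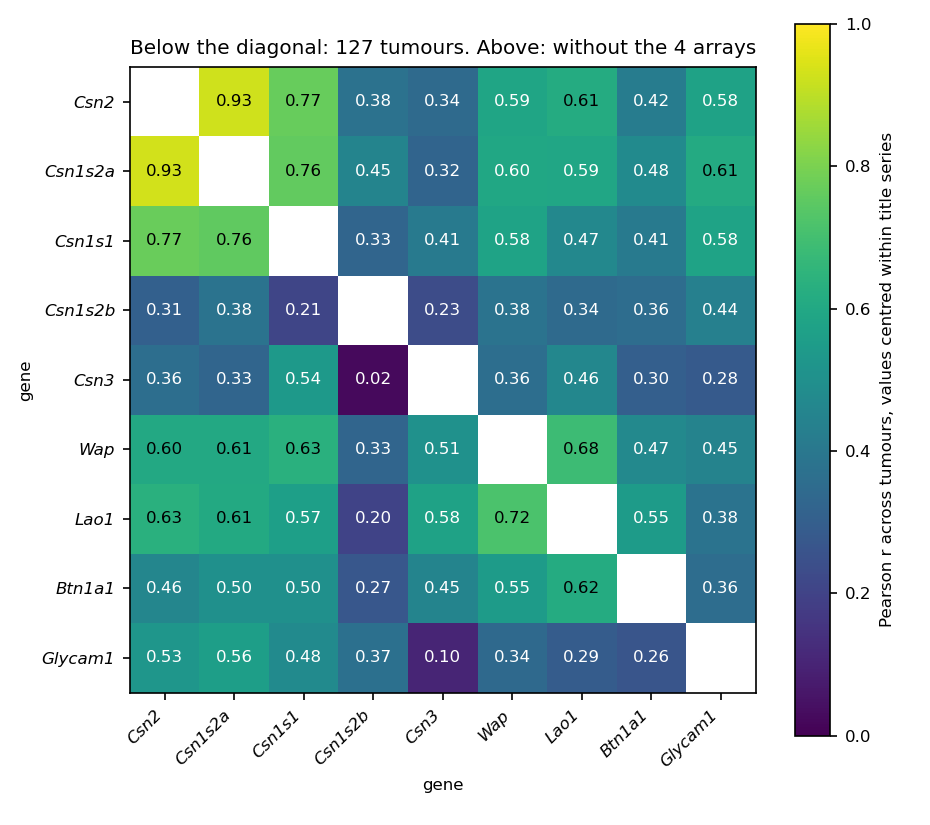
Pearson r for each pair of milk protein genes, on values centred within title series, with all tumours of the main set below the diagonal and those without the 4 arrays above it; colour and printed value both give r. Csn2, Csn1s2a and Csn1s1 share the highest values (0.76 to 0.93), and the rows of Csn1s2b and Csn3 hold the lowest.

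**Figure D3:**
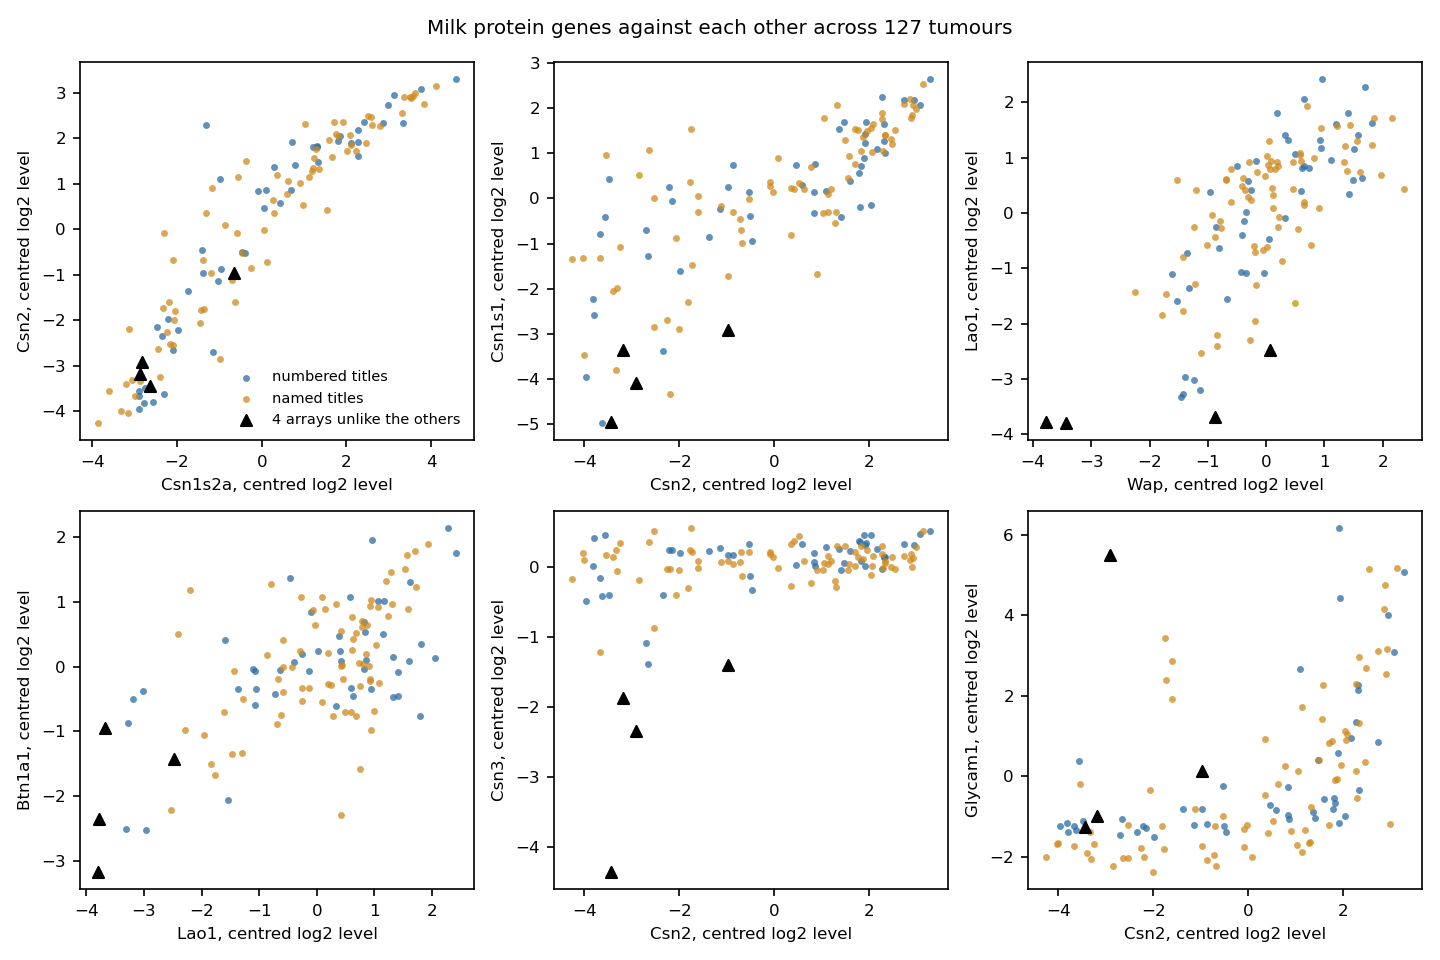
Each point is 1 tumour, placed by the centred log2 level of the genes named on the axes, blue for numbered and orange for named titles, with black triangles for the 4 arrays that stood apart. Csn2 against Csn1s2a forms a narrow band (r = 0.93), Csn3 changes little across the range of Csn2 (0.09 units per unit of Csn2, and 0.05 without the 4 arrays), and Glycam1 is high mainly at the upper end of Csn2 with separate high points at low Csn2.

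Each milk gene was then used in turn to look for genes that vary with it, in a limma fit over all other genes with title series as a term. With Csn2, all 8 other milk genes were higher, where 3.71% of all genes were higher and 5.4% lower. The same 8 of 8 were higher with Csn1s2a (3.67% of all genes), with Wap (7.46%, and 4.49% lower) and with Btn1a1 (4.88%, and 4.32% lower). With Csn1s1, 7 of 8 were higher (5.06%), and with Lao1 also 7 of 8 (10.4%), and in both fits Csn1s2b was the gene that did not pass (r = 0.21 with Csn1s1 and 0.20 with Lao1). With Glycam1, 7 of 8 were higher (2.39%, and 3.29% lower), all but Csn3. With Csn3, 6 of 8 were higher (16.1%, and 32.8% lower), and with Csn1s2b 5 of 8 (15.7%). No milk gene was lower with another in any of these fits. Without the 4 arrays all 8 others were higher with Csn1s1 (2.31% of all genes), Lao1 (6.96%) and Glycam1 (2.76%), and 7 of 8 with Csn3 (5.3%) and with Csn1s2b (1.01%), the missing pair being Csn3 with Csn1s2b in both. All but 9 tumours of the main set lay within 0.5 units of the median of Csn1s2b, so its relations rest on few tumours.

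For size, a tumour with 1 unit more Csn1s2a had 0.96 units more Csn2 (SE 0.03, adjusted p = 1.85e-53 in limma), and a tumour with 1 unit more Csn2 had 0.59 units more Csn1s1 (SE 0.04, adjusted p = 7.26e-23 in limma), 0.30 more Wap, 0.40 more Lao1, 0.21 more Btn1a1 and 0.09 more Csn3. Among all 19937 other genes, Csn1s2a ranked 1 and Csn1s1 ranked 2 by r with Csn2, Lao1 ranked 4, Wap 6, Glycam1 19, Btn1a1 64, Csn3 190 and Csn1s2b 371. With Wap, Lao1 ranked 2 by r. Slopes were also compared between the title series. None of 72 slopes between milk genes differed at an adjusted p of 0.05 in limma (lowest adjusted p = 0.187), and 4 of 72 had an unadjusted p below 0.05. Over all 19937 other genes, however, the slope on Csn3 differed between the title series for 6374. It differed for 40 genes with Lao1, for 18 with Csn1s2b and for none with any other milk gene. This comparison was not made without the 4 arrays.

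The members that shared least with the others were Csn1s2b and Csn3, and their order depended on the 4 arrays. The r of Csn1s2b with the mean of the other 8 was 0.34, below the 0.48 of Csn3, while without the 4 arrays it was 0.48 and that of Csn3 0.45, the lowest of the 9. Over all tumours the same value was 0.82 for Csn1s2a, 0.81 for Csn2, 0.78 for Csn1s1, 0.74 for Wap, 0.73 for Lao1, 0.61 for Btn1a1 and 0.49 for Glycam1. In the set without the 4 arrays it was 0.62 for Glycam1 and 0.56 for Btn1a1, with the others between 0.70 and 0.82. Of the 6 tumours more than 1 unit above the median of Csn1s2b, 4 came from animals with much Csn2 (14141, 14044, 14262 and 14187, with Csn2 at 12.56, 12.80, 12.54 and 12.65). The other 2 were arrays 14312 and 14320, which stood apart and had little Csn2 (6.47 and 8.68). The pair of Csn1s2b and Csn3 had r = 0.02 and rho = 0.14 (permutation p = 0.765 and 0.121), 0.20 within numbered titles, -0.13 within named titles and 0.23 without the 4 arrays. Leaving out the 2 tumours of most extreme Csn1s2b lowered its r with Csn2 from 0.31 to 0.25 and with Wap from 0.33 to 0.24. With Glycam1 it fell from 0.37 to 0.20, with Btn1a1 from 0.27 to 0.14 and with Lao1 from 0.20 to 0.10. With Csn3 it was then -0.08. This was not repeated in the set without the 4 arrays.

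Csn3 differed little between the tumours at either end of the range of Csn2. In the tumours with the lowest Csn2 (13955 at 5.31, 14287 at 5.39 and 14078 at 5.45), Csn3 was at 11.34, 11.32 and 11.84. In the tumours with the highest Csn2 (14044 at 12.80, 14187 at 12.65 and 13987 at 12.58), it was at 12.01, 11.78 and 11.62. Both sets of tumours lay within 1 unit of the median of Csn3, against a range of more than 7 units in Csn2. The median of Csn3 was 12.02 in numbered and 11.58 in named titles. The tumours of lowest Csn2 (13955 and 14078 numbered, 14287 named) lay below the median of their series. Those of highest Csn2, all named, lay above it. Csn3 and Csn2 had r = 0.36 and rho = 0.29 (permutation p = 2e-05 and 0.00077), 0.37 without the 2 extreme tumours, 0.43 within numbered and 0.30 within named titles. The r of Csn3 with Csn1s1 was 0.54, and 0.41 without the 4 arrays, and its r with Wap was 0.51 and 0.36. Apart from the 4 arrays, Csn3 was more than 1 unit below the median of its title series in 3 tumours: 14190 at 10.27, 14061 at 10.45 and 14185 at 10.75. Csn2 was low in each of them, at 5.98, 6.60 and 6.56.

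Glycam1 was high both in tumours with lymph node markers and in tumours without them. In 5 tumours the mean level over 10 genes of lymph node B cells and high endothelial venules was between 6.14 and 9.00, against 4.84 to 5.78 in all others, and all 5 had high Glycam1. In those others it ranged from 4.28 through 5.42 to 12.04 and was above 8 in 21. Animal 14094 had Glycam1 at 12.15 with Csn2 at 6.74, and animal 14358 had 9.52 with Csn2 at 8.05. In 14322, 14262 and 14000 both were high, Glycam1 at 11.81, 11.41 and 10.81 and Csn2 at 12.21, 12.54 and 12.53. The B cell gene Ms4a1 (CD20) was at 8.71 in 14094, where the median of the other tumours was 3.92. It was at 8.03, 7.47, 5.95 and 5.32 in 14322, 14262, 14000 and 14358. Chst4, a venule gene of the list, was at 6.48 in 14094, where the median of the other tumours was 4.77. In 14322, 14262, 14000 and 14358 Chst4 was at 5.56, 5.33, 5.01 and 4.95. Over all tumours the r of Glycam1 with the mean of the lymph node list was 0.45, and without these 5 tumours it was 0.03. Its r with Csn2 was 0.53 over all tumours and 0.57 without the 5, and its r with Csn1s2a was 0.56 and 0.60. The 5 tumours were the highest on the lymph node list, so only its range from 4.84 to 5.78 was left for the r of 0.03. Whether lymph node tissue contributed to the level of Glycam1 was not tested. Csn2 and Glycam1 had rho = 0.65 (permutation p = 1e-05 for r and rho), 0.52 without the 2 tumours of most extreme Csn2, 0.59 within numbered and 0.49 within named titles. Csn3 and Glycam1 had r = 0.10 and rho = 0.26 (permutation p = 0.24 and 0.00337), 0.28 within numbered and -0.04 within named titles.

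**Figure D4:**
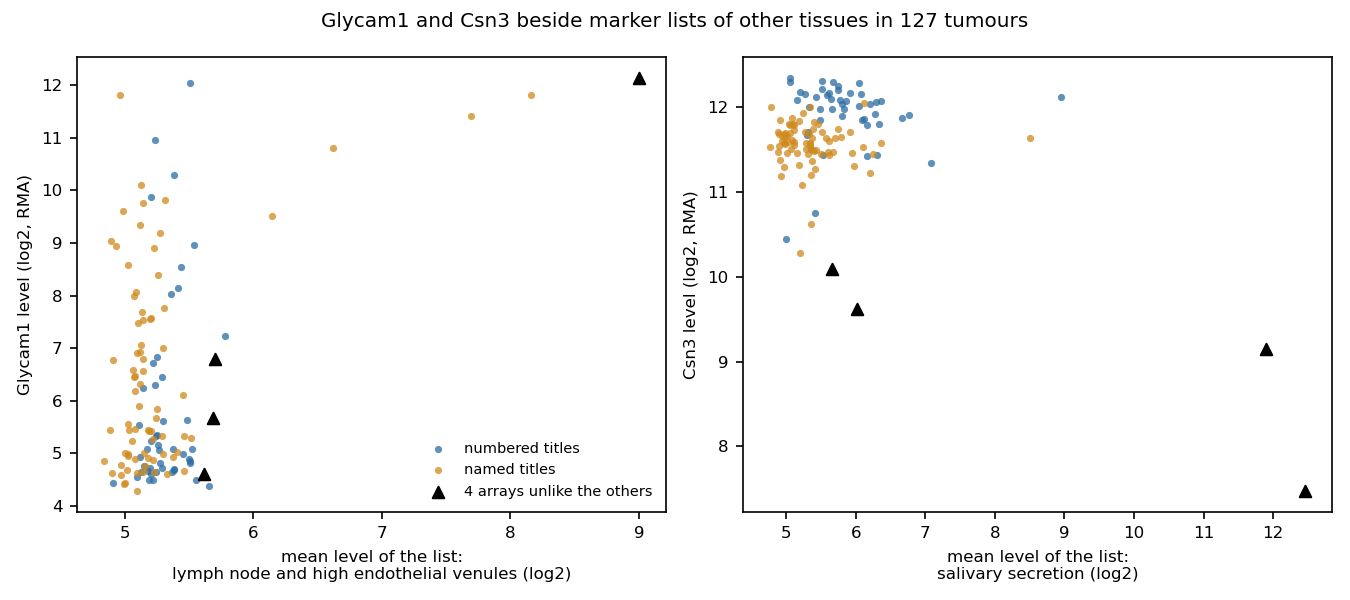
Left, Glycam1 against the mean log2 level of 10 lymph node and high endothelial venule genes; right, Csn3 against the mean log2 level of 12 salivary secretion genes; each point is 1 tumour, with triangles for the 4 arrays that stood apart. The 5 tumours to the right of 6 in the left panel all have Glycam1 above 9, while other tumours reach 12.04 without that signal, and the 2 arrays beyond 11 in the right panel have the lowest Csn3, 9.14 and 7.47.

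Single tumours broke the pattern in particular members. The 12 tumours with the highest level were taken for each gene: 14141 and 14044 were among them for all 9 genes, and 9 tumours for at least 5. In all 45 tumours were among the 12 highest of some milk gene, 26 of them for 1 gene alone. Csn2 and Csn1s2a shared 11 of their 12 highest, Csn2 and Csn1s1 shared 9, Csn2 and Glycam1 8, Csn2 and Wap 4, and Csn2 and Csn3 3. Animal 14052 had much Csn2 (11.55) and Csn1s1 (12.35) with Csn1s2a at 6.83, which put its Csn2 3.54 units above the line on Csn1s2a, where the SD about the line was 0.81. Animal 14356 showed Csn1s1 at 10.73 with Csn2 at 6.10 and Csn1s2a at 4.95. Animal 14286 departed the other way, with Csn1s1 at 5.43 while Csn2 was at 7.46, Lao1 at 10.25 and Csn3 at 11.47. Btn1a1 in the same animal was at 6.19, 2.48 units below its line on Lao1. Animal 13948 had the highest Wap of all tumours (12.21) with Csn2 at 7.88 and Glycam1 at 4.85.

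**Figure D5:**
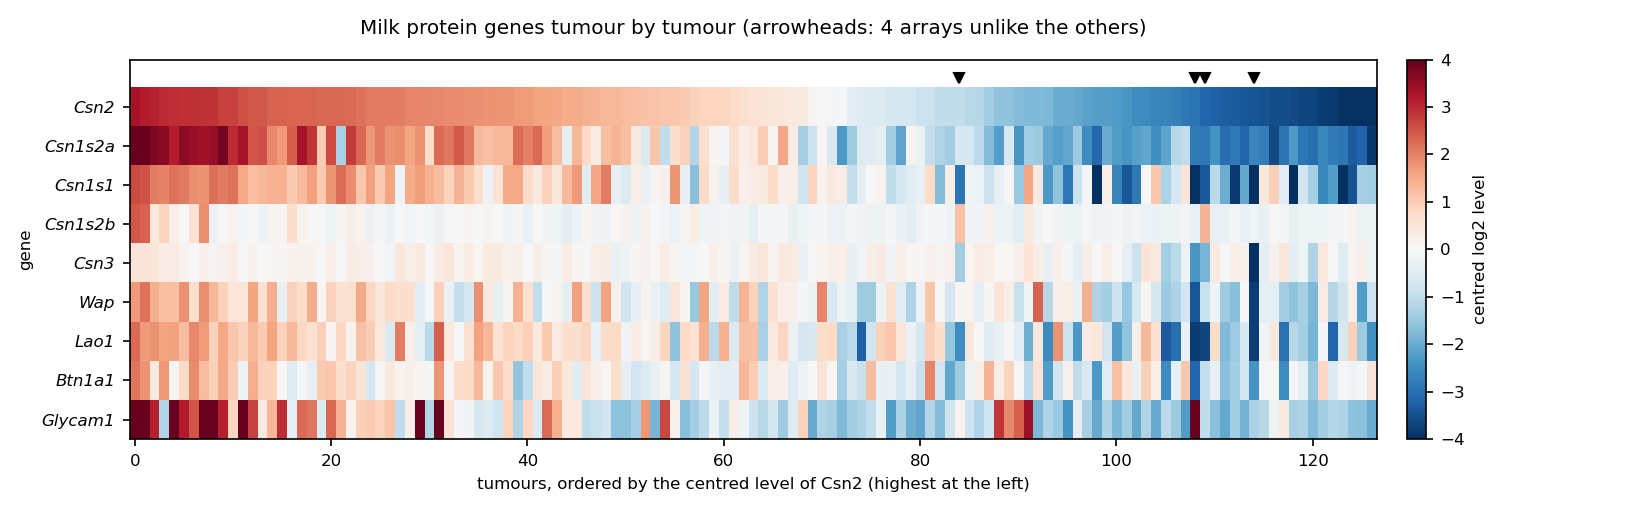
Centred log2 level (colour, red above and blue below the mean of the title series, limited to 4 units either way) of the 9 milk protein genes in each tumour, ordered from left to right by falling Csn2; arrowheads mark the 4 arrays that stood apart. Csn1s2a follows the order of Csn2, Csn1s1 less closely, Csn3 and Csn1s2b are pale in nearly all tumours, and Glycam1 has isolated red columns among low Csn2.

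A second array, with the suffix r, existed for 2 animals, and the difference between them held its sign in 8 of the 9 milk genes. The share of all genes that held their sign was not computed, so the count says nothing particular to milk genes. In Csn1s2b, 1 of the 8, the difference was only 0.07 and 0.02 units. Animal 14352 had Csn1s1 at 11.31 and Glycam1 at 10.10, with Csn2 at 7.90 and Csn1s2a at 7.17. On its second array the values were 10.99, 9.25, 8.54 and 7.56. Animal 14050 showed the reverse, with Csn1s1 at 8.09 and Glycam1 at 5.29 while Csn2 was at 10.56 and Lao1 at 10.42, and its second array gave 7.93, 4.68, 9.89 and 9.65. The median difference over all genes between the second and the first array was -0.46 and -0.47 units. The difference between these 2 animals in Csn1s1 was therefore 3.22 on the first and 3.05 on the second array, and in Csn2 it was -2.66 and -1.35. In Csn1s2a the sign turned, from -0.20 to 1.07. Whether the second array used a new RNA extract is not stated in the labels.

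Other genes of the secretory cell moved with the milk genes to different degrees. Of 15 further milk and secretory cell genes, 9 were higher with Csn2 and none lower in limma (3.71% and 5.4% of all genes, median r 0.32, where the median over all genes was -0.02). They included Plin2 (r = 0.61), which coats milk lipid droplets, Ltf (0.54), the gene of lactoferrin, Olah (0.54), the thioesterase that sets the chain length of milk fatty acids, and Cel (0.49), a lipase of milk. With Wap 10 of the 15 were higher and none lower (7.46% and 4.49% of all genes, median r 0.44). With Csn3 11 were higher and 1 lower (16.1% and 32.8%, median r 0.34), and 7 and 1 without the 4 arrays (5.3% and 6.42% of all genes). Of 16 genes of milk fat synthesis, 7 were higher with Csn2 and 1 lower, 9 and 1 with Csn1s2a (3.67% and 5.25% of all genes) and 9 and 1 with Lao1 (10.4% and 16.7%). Acaca (r = 0.37 with Csn2), which commits acetyl-CoA to fatty acids, and Fabp3 (0.34), a fatty acid binding protein, were among them, and Scd2 (-0.28), a stearoyl-CoA desaturase, was the gene lower with Csn2. Of 7 genes of lactose synthesis, 2 were higher with Csn2 and none lower: B4galt1 (0.33), which with alpha-lactalbumin forms lactose synthase, and Slc2a1 (0.41), the glucose transporter Glut1.

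In the prolactin pathway, the following of 17 genes passed with Csn2, where 3.71% of all genes were higher and 5.4% lower. Stat5a (r = 0.41), Stat5b (0.27) and Elf5 (0.47), the transcription factor of alveolar cells, were higher. Socs2 (-0.51), which encodes an inhibitor of cytokine receptor signalling, was lower. Elf5 was closer to Lao1 (r = 0.68), Wap (0.64), Btn1a1 (0.60) and Csn1s1 (0.58). The hormone receptor genes Esr1 (0.06) and Pgr (-0.05) did not pass with Csn2. With Lao1, 7 of the 17 were higher and 1 lower, where 10.4% of all genes were higher and 16.7% lower. With Wap the numbers were 6 and 1 (7.46% and 4.49% of all genes), with Csn3 11 and 1 (16.1% and 32.8%), and with Glycam1 none and 3 (2.39% and 3.29%). Without the 4 arrays, Elf5, Stat5a and Tnfrsf11a were higher with Wap and Socs2 and Ccnd1 lower (3.11% and 2.42% of all genes). In that set Jak2, Stat5a, Stat5b, Elf5, Gata3, Nr3c1 and Tnfrsf11a were higher with Csn3 and none of the 17 lower (5.3% and 6.42%). Of 9 luminal epithelial genes, 2 were higher with Csn2 (Krt19 at r = 0.51 and Cldn7), where 3.71% of all genes were higher. With Wap 5 were higher and 1 lower (7.46% and 4.49% of all genes), and with Csn3 8 and 1 (16.1% and 32.8%). Leaving out the 4 arrays, the numbers higher were 1 with Csn2 (4.56% of all genes), 1 with Csn3 (5.3%) and none with Wap. All 12 mitosis genes were higher with Wap (7.46% of all genes) and with Csn3 (16.1%) over all tumours. With the 4 arrays left out, 1 of 12 was higher with Wap (3.11% of all genes), and with Csn3 none was higher and 1 was lower (6.42% of all genes lower). The mean level of these genes was 6.46 and 5.58 on arrays 14094 and 14095 and between 7.75 and 9.46 on the others.

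The neighbours of the casein cluster were counted in the same way. Of 16 measured genes within 500 kb of a casein gene in the RefSeq annotation, 1 was higher with Csn2 and 1 lower, near the shares over all genes (3.71% and 5.4%). The gene that was higher was Sult1d1, a sulfotransferase gene that lies in the cluster (r = 0.30 with Csn2, 0.33 with Csn1s2a and 0.42 with Lao1), and the lower one was Smr2 (-0.38), which encodes a submaxillary gland protein. The median r of the 16 with Csn2 was -0.08, and 0.01 without the 4 arrays. The counts differed between the caseins: with Csn1s2a 1 was higher and 1 lower, with Csn1s1 none was higher and 5 were lower (8.2% of all genes lower), with Csn3 none was higher and 11 were lower (32.8%), and with Csn1s2b 7 were higher and none lower (15.7% higher). When the 4 arrays were left out, 1 of the 16 was lower with Csn1s1 (4.13% of all genes lower). With Csn3 1 was higher and 1 lower (5.3% and 6.42%), and with Csn1s2b 1 was higher (1.01%).

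The genes most like each milk gene, outside the 9, differed between members. For Csn2 they were Atp2c2 (r = 0.65), a secretory pathway calcium pump, Plin2 (0.61), Fam20c (0.60), the kinase that phosphorylates secreted proteins including caseins, Gm12863 (0.60) and Saa2 (0.57), a serum amyloid gene, and the lowest values were those of Limch1 (-0.65), Sipa1l1 (-0.61) and Gm4983 (-0.61). Csn1s2a had Atp2c2 (0.68), Gm12863, Plin2, Gldc and Fam20c in first place, with 4 of these also on the list of Csn2. For Csn1s1 they were Ptges (0.67), a prostaglandin E synthase, Plin2, Lbp, Saa2 and Krt19. Wap had Plin2 (0.74), Duox1 (0.66), Saa2, Saa1 and Elf5. Lao1 had the nucleoside transporter Slc28a3 (0.82), the phosphate transporter Slc34a2 (0.81), Folr1 (0.70), a folate receptor, Stard5 and Wdr62. Btn1a1 shared Slc28a3 (0.66) and Slc34a2 (0.65) with Lao1, followed by Slc2a9, Btn2a2 (0.61) and Elf5. Btn2a2 is a butyrophilin gene close to Btn1a1 in the genome and related to it in sequence, and cross-hybridisation between them was not tested. It was in first place without the 4 arrays (0.73).

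For Csn1s2b the most alike genes were Gldc (0.69), which encodes glycine decarboxylase, Hecw2 (0.68), the copper pump Atp7b (0.66), Gm12863 and Steap1, and 4 of these 5 were also among the 5 without the 4 arrays. Glycam1 had Gm12863 (0.53), Olah (0.51), Inpp4b, Gldc and 1810065E05Rik, so that Gldc and Gm12863 recurred with Csn1s2a, Csn1s2b and Glycam1. Of 10 lymph node genes, 8 were higher with Glycam1 and none lower (2.39% of all genes higher), and 7 without the 4 arrays (2.76%). Of the 5 tumours highest on the lymph node list, only 14094 was among the 4 arrays. The count was not made without those 5 tumours, where the r of Glycam1 with the mean of the list was 0.03. Csn3 changed most between the sets of tumours. Over all tumours its list held Trf (0.84), the gene of transferrin, Muc15 (0.84), Lcn2 (0.80), Gata3 (0.77) and Clca3a2 (0.77). Without the 4 arrays the values were 0.38 for Trf, 0.66 for Muc15, 0.24 for Lcn2 (adjusted p = 0.0633 in limma), 0.32 for Gata3 and 0.42 for Clca3a2, and the first places went to Cdhr1 (0.67), Muc15, Tc2n, Bace1 and Mid2. Of 12 salivary genes 11 were lower with Csn3 over all tumours (32.8% of all genes) and none without the 4 arrays (6.42%).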

How the data were processed

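RNA of 133 mammary tumours was measured on Affymetrix mouse gene arrays. The deposited values are log2 levels made by the authors with RMA (background correction, quantile normalization and probeset summary), as the submitters' processing notes name it. The middle array median was nevertheless 6.18 for numbered titles, 5.95 for named titles and 5.44 for the suffix r. Whether all arrays were normalized together was not tested. The RMA version, like any genome build, is not given in the sources used here. Array values carry no read depth, and the number of arrays limits the precision. Probesets with 1 gene symbol (21789 of 35556) were kept, and for each gene the one of highest mean, which left 19938 genes. The 6 arrays with the suffix r were left out, and 48 numbered and 79 named arrays, 1 per animal, were used. Values were centred within numbered and named titles. Each gene was regressed on each milk gene with title series as a term in limma 3.58.1 (R 4.3.3; eBayes with trend, two-sided, Benjamini-Hochberg over all genes, threshold 0.05), after the fit was tested on simulated data. p-values measure the spread between animals. Correlations were given with 100000 permutations (scipy 1.17.1) and 36 pairs were computed. The 9 milk genes, and for each the 5 genes of highest and the 3 of lowest r, are named, and list members that passed or define a list; animals 14051, 14033, 14052 and others named singly were chosen after their values were seen. The members and the 19 gene lists were chosen with earlier results of these data known. The lists cover milk, prolactin, fat and lactose genes, epithelium, other tissues, blood cells, mitosis and housekeeping genes, and the text gives those that bear on a result. Alternatives left out arrays, kept the suffix r, split the titles, or changed normalization, centring, covariates, filter, moderation, probeset and measure. Sequence differences between founder alleles under the probes were not tested.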

Additional observations from a re-analysis of the deposited data

How the results depend on the processing

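The tumours are 1 sample each from 1 animal, without replicate arrays in the main set, and no paired analysis was possible because there is 1 group of tumours and replicate numbers pair nothing. The median r over the 36 pairs stayed between 0.45 and 0.54 under all alternatives run. Under those that kept both title series and all genes in the fit, 32 to 35 of 36 pairs passed, and 24 passed with named titles only and 23 with numbered titles only, where fewer arrays were used. The SD of Csn3 was 0.58, 0.38 without animals 14094 and 14095, 0.31 without the 4 arrays and 0.21 as a median absolute deviation, and that of Csn1s2b was 0.44 and 0.14 as a median absolute deviation. Milk genes called higher with Csn1s2b numbered 3 with named titles only and 2 with numbered titles only (5 in the main analysis), with Glycam1 3 and 4 (7), and with Btn1a1 5 with numbered titles only (8). The r of Csn1s2b with Csn3 was -0.13 with named titles only and -0.033 without animals 14094 and 14095, and that of Csn3 with Glycam1 was -0.044 with named titles only. Between title series, 2 milk genes passed, and 1 did with the suffix r arrays included, without animals 14094 and 14095, and without the 4 arrays. After quantile normalization across arrays the difference of Csn1s2b was -0.094 and that of Wap -0.16, both with the sign turned, and genes higher in numbered titles numbered 5954 and in named titles 6123 (13876 and 1141 in the main analysis). Counts of all genes higher ranged more widely: from 175 to 910 with Csn2 (739), 173 to 867 with Csn1s2a (732), 372 to 1308 with Csn1s1 (1008), 326 to 1612 with Wap (1488), 659 to 2300 with Lao1 (2077), 197 to 1329 with Btn1a1 (972), 99 to 638 with Glycam1 (477), 1056 to 4730 with Csn3 (3212) and 152 to 3411 with Csn1s2b (3127). Counts of genes lower ranged from 233 to 1403 with Csn2 (1076), 167 to 1079 with Wap (896), 94 to 2044 with Btn1a1 (862), 91 to 1647 with Glycam1 (656) and 1033 to 8143 with Csn3 (6537). The causes were not tested. Leaving out animals 14094 and 14095, or the 5 tumours of highest lymph node level, was chosen after seeing the data.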
